A study of Mus musculus with 8 samples.

Results

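The mitochondrial ribosome makes the few proteins that are still encoded by mitochondrial DNA, all of them subunits of the respiratory chain and ATP synthase. Its RNAs come from the mitochondrial genome, while every one of its proteins is encoded in the nucleus, made in the cytosol and imported. The large subunit joins amino acids and sits at the inner membrane, and the small subunit holds and decodes the mRNA. The genes studied here are those whose symbol is Mrpl or Mrps followed by a number and at most 1 letter, with at least 1 TPM in at least 4 embryos. TPM is a level per length of transcript, set to the same sum in every library. The pattern fitted 78 of 41709 gene symbols in the deposited values, and all 78 passed the filter, among 13596 genes that did so. By symbol 49 belong to the large subunit and 29 to the small subunit.

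The RNA of 8 single mouse embryos, taken whole at embryonic day 9.5, was sequenced. They came from crosses between SmoK399A/+ parents. Smo encodes Smoothened, the membrane protein that passes the Hedgehog signal into the cell, and K399A is a substitution in it. Of the embryos, 4 were Smo+/+ (WT) and 4 were SmoK399A/K399A (mutant). Each embryo was 1 sample. Nothing else in the labels sets the embryos of a genotype apart. Several litters were used, but no label ties an embryo to its litter, so litter and genotype cannot be told apart. The comparison asks how the transcriptome of the embryo differs when Smoothened carries the substitution, and here what the genes of the mitochondrial ribosome show in it.

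The libraries were nearly equal in depth. Between 57.81 M and 59.30 M whole reads per library were recovered from the steps between TPM values, and each of the 78 genes rested on 1314 to 13715 reads per embryo. Markers of neural tube (10 of 10), heart muscle (12 of 12) and primitive red cells (10 of 10) were above 0 in each embryo. Over all 13596 genes the median difference from the WT mean, on the log2(TPM + 1) scale, was -0.125 in mutant 3 and -0.098 in mutant 4, against -0.013 to 0.042 in the other 6 embryos. The summed TPM of 9 hosts of small nucleolar RNAs was 396.3 and 374.1 in mutants 3 and 4 and 699.3 to 892.3 in the others. Markers of yolk sac endoderm, a tissue outside the embryo proper, were all 17 above 0 in each embryo and summed to 31.5, 59.3, 283.9 and 33.4 TPM in WT 1 to 4 and to 1414, 886.9, 252.6 and 168.5 TPM in mutants 1 to 4. Red cell markers summed to 15907 TPM in WT 1, where each of the 10 was at its lowest, and to 22632 to 57894 TPM in the other 7. WT 1 and mutants 3 and 4 thus stood apart in these measures, and mutants 1 and 2 in yolk sac markers. Counts are also given without WT 1 and without either pair of mutants. The 10 trophoblast and decidua markers, of which 5 passed the filter and 2 to 4 were at 0 in each embryo, summed to 329.1 TPM in mutant 2 and to 7.22 to 63.0 TPM in the others. Heart markers summed to 1319 to 1924 TPM in WT and 1979 to 4029 TPM in mutants, and neural markers to 471.6 to 693.3 and 287.4 to 534.2 TPM. The part of these markers in the results was not tested. In whole embryos fewer cells of a type and less RNA per cell cannot be told apart.

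Promoter sequence was taken from RefSeq (build GRCm38.p6) for 69 of the 78 genes, as the 250 bases before to the 50 bases after the start, and searched on both strands for 4 words. NRF1, a regulator of nuclear genes for mitochondria, is known for GCGCATGC, ETS factors such as GABPA for CCGGAAGT, YY1 for AAGATGGC and MYC family proteins for the E-box CACGTG. The 4 stretches below are shown because they hold a word ahead of the start and lie outside annotated exons. No such stretch of at least 60 bases was found for 5 genes whose limma p was smaller than that of Mrpl22. The word found is in capitals, on the gene's own strand.

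Mrpl2, E-box, chr17:46646071-46646220, plus strand: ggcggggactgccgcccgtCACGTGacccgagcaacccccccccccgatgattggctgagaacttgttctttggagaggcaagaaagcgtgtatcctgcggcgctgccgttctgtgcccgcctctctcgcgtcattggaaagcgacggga

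Mrps22, ETS, chr9:98601680-98601829, minus strand: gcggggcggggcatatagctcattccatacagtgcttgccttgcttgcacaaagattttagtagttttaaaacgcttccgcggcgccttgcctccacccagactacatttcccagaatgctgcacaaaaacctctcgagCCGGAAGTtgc

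Mrpl22, NRF1, chr11:58171511-58171660, plus strand: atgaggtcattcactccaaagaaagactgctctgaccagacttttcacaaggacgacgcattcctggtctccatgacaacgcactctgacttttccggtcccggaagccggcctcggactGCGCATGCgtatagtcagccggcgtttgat

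Mrps27, ETS read on the other strand, chr13:99344706-99344785, plus strand: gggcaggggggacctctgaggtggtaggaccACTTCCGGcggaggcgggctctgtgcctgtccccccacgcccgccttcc

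Counted over the whole windows, 11 of 69 genes (15.9%) held the ETS word, against 8.17% of the 10545 tested genes with a window. The NRF1 word was in 8 (11.6%), against 5.42%. Of these 8 genes 7 were of the large subunit, as were 43 of the 69 genes with a window. The YY1 word was in 12 (17.4%), against 4.68%, but only 4 of 69 (5.80%) held it before the start, where the share over tested genes was 2.04%. The E-box was in 5 (7.25%), against 10.4%. At least 1 of the 4 words stood in 30 of 69 promoters (43.5%) and in 25.3% of those of tested genes. A word is a match of letters in this window and no measured binding, and its absence says nothing of the factor. Words can overlap one another in the same promoter.

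The transcripts ranged over more than an order of magnitude. Mrpl12, the counterpart of the bacterial stalk protein at which translation factors dock, was the highest, at 476.8, 369.6, 432.3 and 372.6 TPM in WT 1 to 4 and 389.5, 331.1, 322.4 and 321.9 TPM in mutants 1 to 4. Mrpl54, a large subunit protein without a bacterial counterpart, followed at a mean of 232.2 TPM over 8 embryos, and Mrpl28 at 225.3 TPM. In the small subunit Mrps21 was highest at 196.3 TPM, followed by Mrps23 at 128.0, Mrps7 at 126.5 and Mrps12 at 115.3 TPM. Mrps12 is the counterpart of a bacterial protein of the decoding centre. At the other end stood Mrps10 at 12.1, Mrpl48 at 13.3, Mrpl33 at 15.2 and Mrps35 at 16.2 TPM. The median gene was at 79.2 TPM in the large subunit and at 59.5 TPM in the small subunit. In the plot of levels, neighbours in the order mostly overlap in their 8 embryos, and the order is that of these libraries.

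**Figure D1:**
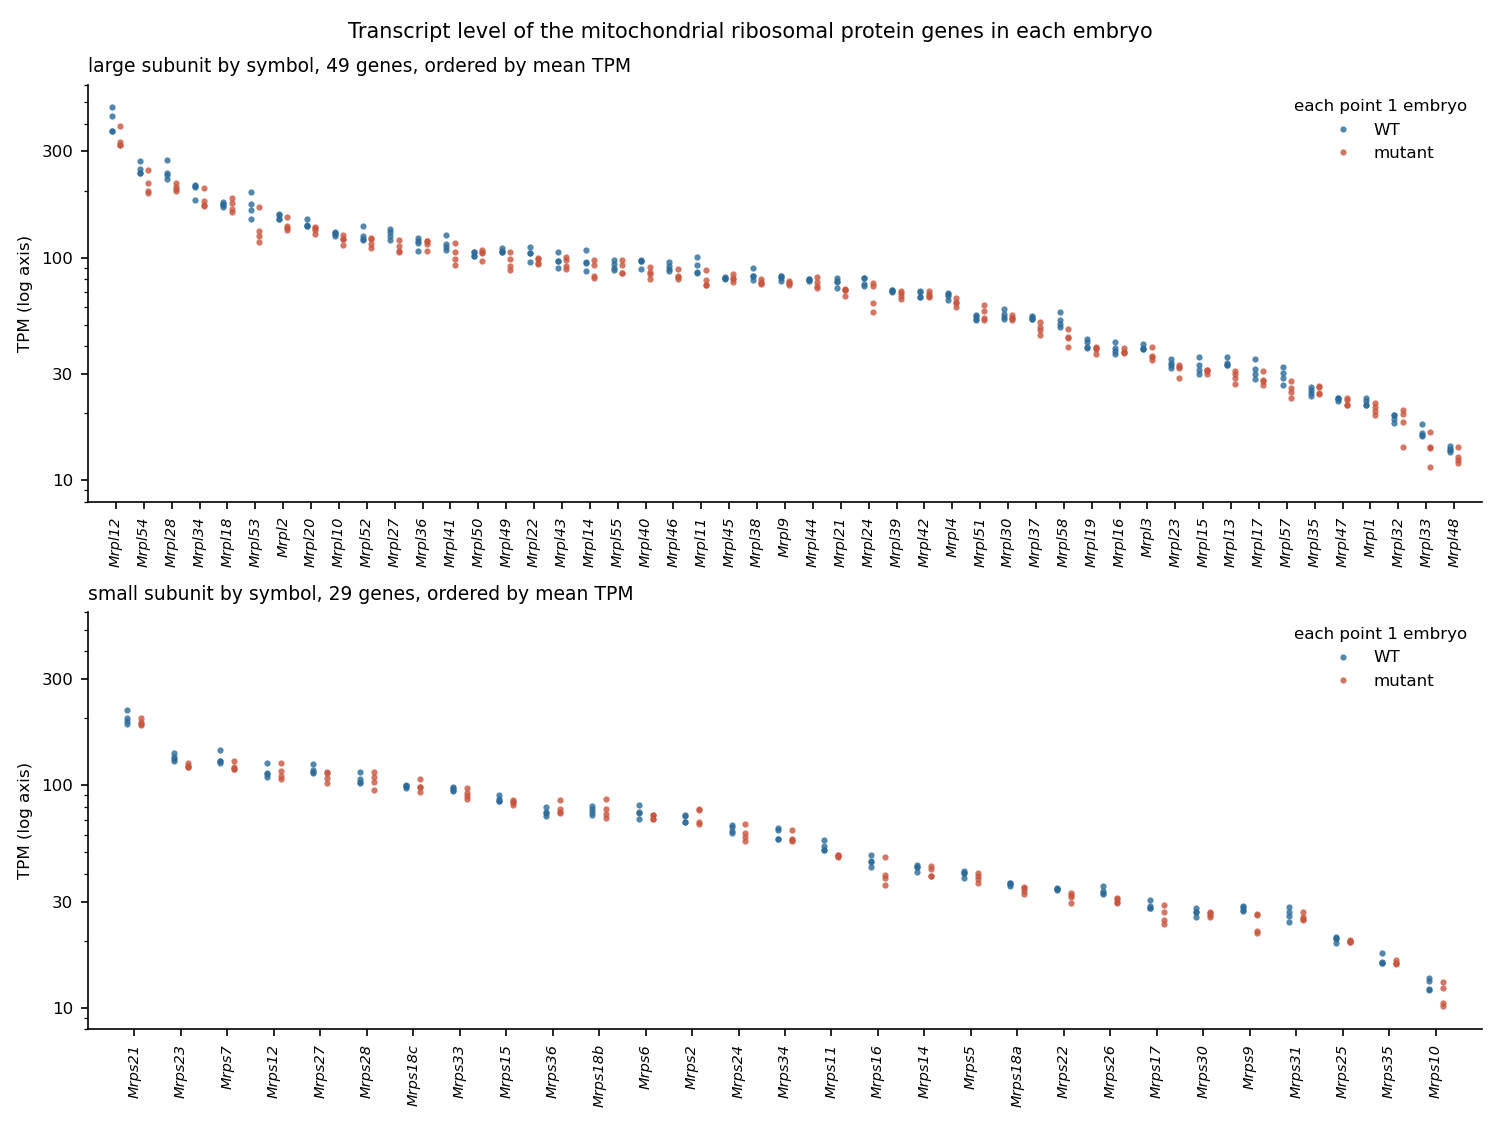
TPM of each gene on a log axis, large subunit above and small subunit below, ordered by mean TPM; each point is 1 embryo, WT in blue and mutant in red. Mrpl12 leads at 321.9 to 476.8 TPM, and the spread among embryos is small beside the spread among genes.

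This order depends on which length a gene's reads are divided by. The deposited values fit whole reads when the merged length of all annotated exons is used, and that length was a median of 1.42 times that of the gene's principal transcript. It was over 2 times as long for 21 genes and over 5 times as long for 5. Mrpl33 is the extreme, with 7326 merged bases against 478 in the principal transcript. Divided by the principal transcript, its reads moved from rank 76 to rank 8 of 78, Mrpl42 moved from 43 to 2, Mrpl23 from 60 to 9 and Mrpl13 from 63 to 10. Mrpl12 was first by both lengths. The ratio of the highest to the lowest level was 31.1 by merged length and 20.2 by principal transcript, and the ranks by the 2 lengths correlated at Spearman 0.66 over the 78 genes. A comparison of mutant with WT for 1 gene is not touched by this choice where isoform use is the same.

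Levels were close among WT embryos. The coefficient of variation over 4 embryos had a median of 4.07% in WT and 5.26% in mutants over the 78 genes. Over the 8790 genes with a WT mean of at least 10 TPM it was 5.06% in WT and 9.69% in mutants. It reached 12.5% in WT, for Mrpl12, and 16.6% in mutants, for Mrpl53.

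The summed TPM of the large subunit was 4841, 4412, 4532 and 4394 in WT 1 to 4, whereas mutants 1 to 4 had 4311, 4052, 4128 and 4058. Each mutant was below each WT embryo. For the small subunit the sums were 2060, 1924, 1933 and 1908 in WT and 1904, 1847, 1857 and 1889 in mutants. Again no mutant reached the lowest WT embryo in TPM, with mutant 1 and WT 4 nearly level. Mitochondrial-genome mRNAs made up 6.08% of TPM in mutant 1 and 6.33% in mutant 4, against 4.98% in WT 4. The sums were not recomputed without these mRNAs. The small subunit order of mutants 1 and 4 and WT 4 is thus one of TPM with these mRNAs included, and gaps so small need not hold on another scale. The ratio of the 2 sums was 2.35, 2.29, 2.34 and 2.30 in WT and 2.26, 2.19, 2.22 and 2.15 in mutants, so that the large subunit made up less of the total in each mutant. Mean over genes on the log2(TPM + 1) scale, the large subunit was at 6.18 ± 0.051 (SD, n = 4) in WT embryos and 6.07 ± 0.037 in mutants, which differ by -0.11. The small subunit was at 5.80 ± 0.046 and 5.73 ± 0.025, a difference of -0.070. The differences were -0.11 and -0.072 when Mrps30 and Mrps18a, whose products sit in the large subunit of the mammalian particle, were counted there.

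**Figure D2:**
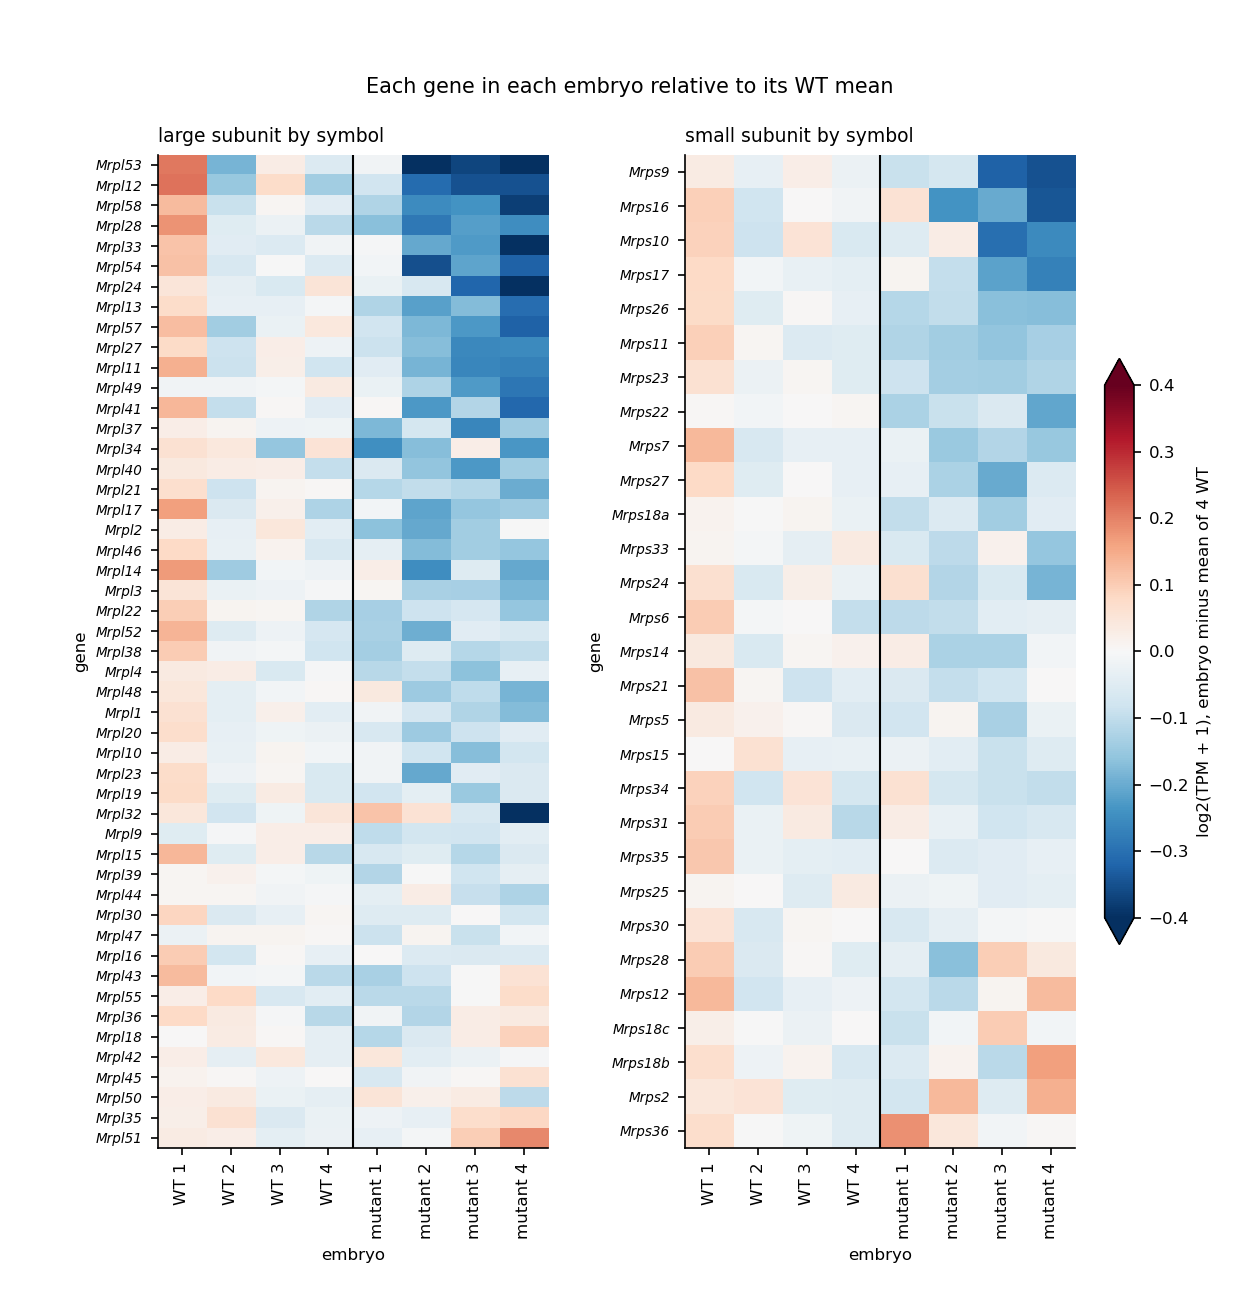
Each gene (rows) in each embryo (columns), as log2(TPM + 1) minus the mean of the 4 WT embryos, with colours capped at 0.4 either way. WT 1 is warm over most rows, and mutants 2 to 4 are cool over most rows of the large subunit.

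The map of all genes by embryo shows 1 high WT library and values under the WT mean for most genes in each mutant. WT 1 was the highest of the 8 embryos for 54 of 78 genes (69.2%), against 13.0% of all genes, while each other embryo was highest for 1 to 6. Mutant 4 was the lowest for 28 genes, mutant 3 for 17, mutant 2 for 16 and mutant 1 for 10, and the WT embryos for 0 to 3 each. For mutants 4, 3, 2 and 1 these were 35.9%, 21.8%, 20.5% and 12.8% of the 78. Over all genes the same mutants were lowest for 25.4%, 30.3%, 4.78% and 11.3%. The count of genes below their WT mean was 63, 69, 66 and 66 in mutants 1 to 4, and 3, 57, 41 and 61 in WT 1 to 4. For mutants 1 to 4 these were 80.8%, 88.5%, 84.6% and 84.6% of the 78. Over all genes the shares were 47.2%, 38.8%, 74.5% and 65.5%, so mutants 3 and 4 were low over most of the transcriptome as well. WT 1 was also highest for 49 of 80 cytosolic ribosomal protein genes, and lowest for all 10 red cell markers. The part of these values in the result was not tested.

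Most genes of the mitochondrial ribosome had a small fold change below 0 in mutants, and none passed the test. With limma on log2(TPM + 1), adjusted by Benjamini and Hochberg over 13596 genes, 0 of 78 genes and 0 of all genes (0%) had an adjusted p under 0.05. At an unadjusted p under 0.05, 20 of 78 were lower (25.6%), against 8.0% of all genes, and 0 were higher, against 5.55%. They were 16 of 49 in the large subunit (32.7%) and 4 of 29 in the small subunit (13.8%). The log2 fold change was below 0 for 72 of 78 genes (46 of 49 and 26 of 29), against 62.3% of all genes. In 14 genes (17.9%) all 4 mutants were below all 4 WT embryos, against 3.82% of all genes. In 0 genes were all mutants above all WT embryos, against 3.63%. The median log2 fold change was -0.10 in the large subunit (range -0.34 to 0.062), -0.058 in the small subunit (-0.21 to 0.056) and -0.045 over all genes. Counts of genes are a description, since genes of an embryo are not independent.

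The genes were also split by whether the product holds a position known from bacterial ribosomes. By this split Mrps18a and Mrps18b count as mitochondria-specific, although they are paralogs of a bacterial-type gene. In the large subunit 29 of 30 bacterial-type genes had a fold change below 0, with a median of -0.097, and 17 of 19 mitochondria-specific genes, with a median of -0.11. Of all genes 62.3% were below 0. At an unadjusted p under 0.05, 8 of 30 (26.7%) and 8 of 19 (42.1%) were lower, against 8.0% of all genes. The difference between the classes was not tested. In the small subunit 15 of 16 bacterial-type genes were below 0, with a median of -0.064, and 11 of 12 mitochondria-specific genes, with a median of -0.063. There 2 of 16 (12.5%) and 2 of 12 (16.7%) were lower at an unadjusted p under 0.05, against the same 8.0%. Mrps36 was put in neither class, since its product is now known as a part of the 2-oxoglutarate dehydrogenase complex.

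**Figure D3:**
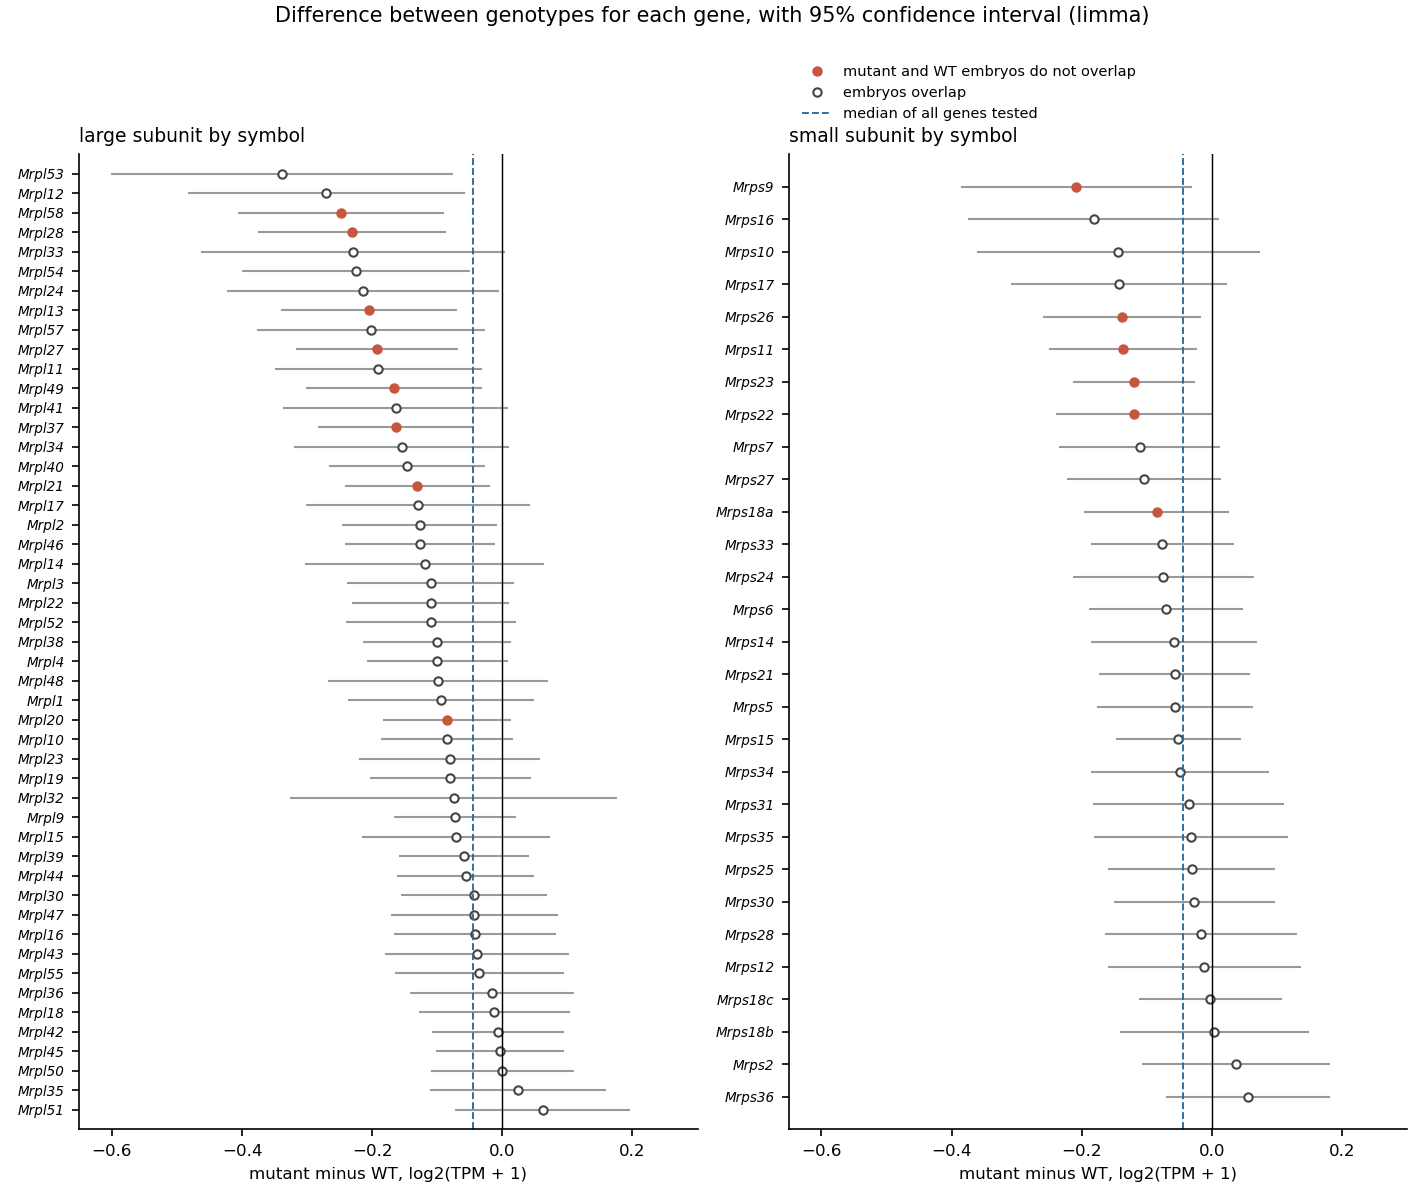
Mutant minus WT on the log2(TPM + 1) scale with its 95% confidence interval from limma, large subunit left and small subunit right; filled points mark the 14 genes whose mutant and WT embryos do not overlap, and the dashed line the median of all genes (-0.045). Nearly all points lie left of 0, from -0.34 for Mrpl53 to 0.062 for Mrpl51.

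Mrpl28 (chromosome 17, 26123500 to 26126613, GRCm38), the counterpart of a bacterial large subunit protein, had the smallest p. It was at 275.5, 234.8, 239.1 and 225.3 TPM in WT 1 to 4 and 216.2, 198.9, 208.3 and 204.3 TPM in mutants 1 to 4. No mutant reached the lowest WT embryo. The means were 243.7 ± 22 and 206.9 ± 7.30 TPM (SD, n = 4), a log2 fold change of -0.23 ± 0.064 (SE; limma adjusted p = 0.281; exact permutation p = 0.0286, the smallest that 4 against 4 allow). WT 1 was the highest, and without it the fold change was -0.17.

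Mrpl58 (chromosome 11, 115403752 to 115412674) encodes a peptidyl-tRNA hydrolase that has become part of the large subunit and can free stalled ribosomes. It was at 56.9, 48.8, 52.3 and 50.3 TPM in WT and 47.8, 43.5, 43.9 and 39.8 TPM in mutants. The groups did not overlap, and the fold change was -0.25 ± 0.070 (adjusted p = 0.281 with limma). Mrpl27 (chromosome 11, 94653767 to 94660089), whose bacterial counterpart lies by the peptidyl transferase centre, was at 134.3, 120.3, 129.8 and 125.7 TPM in WT and 119.9, 113.2, 106.4 and 106.6 TPM in mutants. Here mutant 1 and WT 2 nearly met. Its log2 fold change was -0.19 ± 0.055.

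Mrpl13 (chromosome 15, 55534094 to 55557748), also of bacterial type, was at 35.7, 33.0, 33.1 and 33.7 TPM in WT and 31.0, 28.9, 29.9 and 27.2 TPM in mutants. Mrpl37 (chromosome 4, 107055874 to 107066868), found only in mitochondrial ribosomes, was at 54.9, 54.2, 53.1 and 53.2 TPM in WT and 47.4, 51.3, 44.8 and 48.7 TPM in mutants. In both genes the 8 embryos fell into 2 ranges that did not overlap. Their log2 fold changes were -0.20 ± 0.060 and -0.16 ± 0.053 (limma adjusted p = 0.284 and 0.300). The other large subunit genes without overlap were Mrpl49, Mrpl21 and Mrpl20, at -0.17, -0.13 and -0.085, named after their values were seen.

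Of the 4 highest genes of the large subunit, Mrpl28 alone had no overlap. Mrpl12 (chromosome 11, 120484613 to 120489065) was at 412.8 ± 51.5 TPM over WT embryos against 341.2 ± 32.4 TPM over mutants, with a log2 fold change of -0.27 ± 0.095 (limma adjusted p = 0.315). Mutant 1, at 389.5 TPM, was above WT 2 and WT 4. Mrpl54 was at 250 ± 14.7 and 214.5 ± 23.8 TPM, and mutant 1 at 247.6 TPM again lay among the WT embryos. Mrpl34 was at 203.1 ± 14.1 and 182.5 ± 16.5 TPM, with WT 3 low at 182.0 and mutant 3 high at 206.5 TPM. Mrpl53, named after its values were seen, had the largest fold change of the 78, at -0.34 ± 0.117, from 170.8 ± 19.9 to 135.5 ± 22.5 TPM. Its mutant 1, at 168.1 TPM, was above 2 of the WT embryos. Another annotated gene on the same strand covers 695 of the 790 merged exon bases of Mrpl53, so reads there cannot be told apart. Of the lowest genes, Mrpl33 was at 16.5 ± 0.955 and 14.0 ± 2.02 TPM and Mrpl48 at 13.7 ± 0.368 and 12.8 ± 0.949 TPM.

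**Figure D4:**
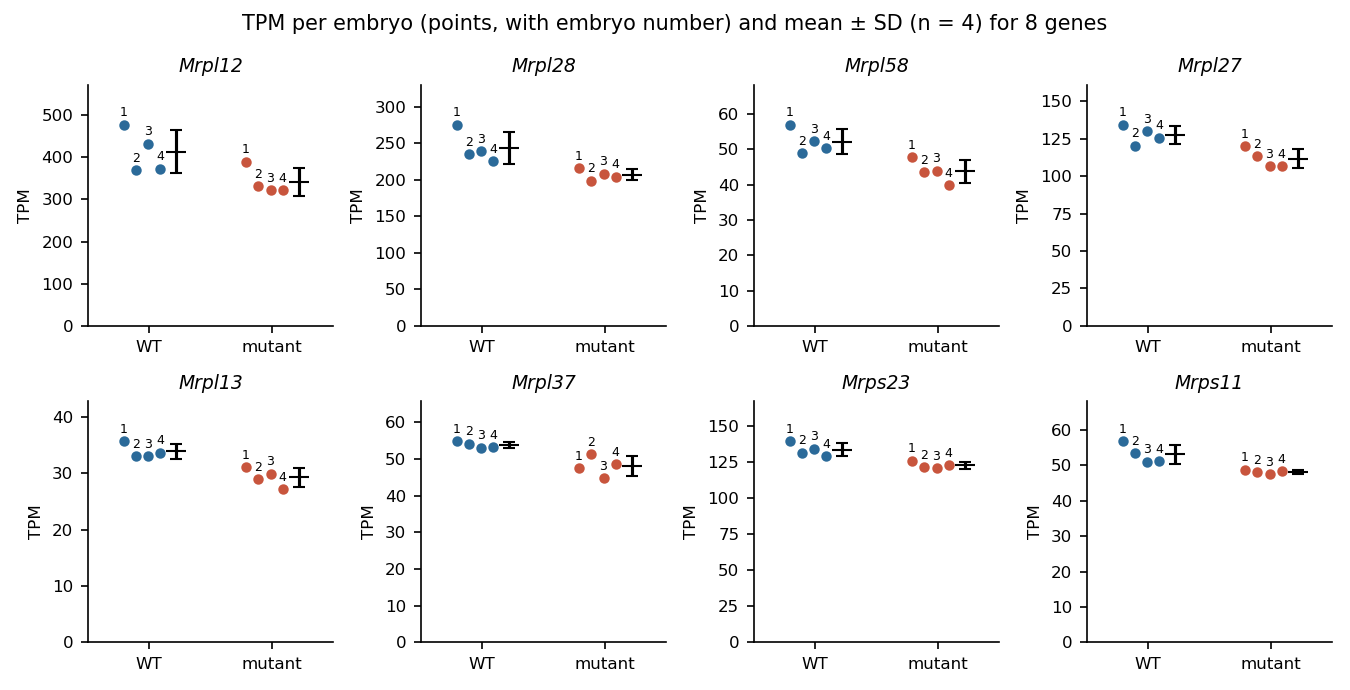
TPM of 8 genes in each embryo, with the embryo number above each point and mean ± SD (n = 4) as a bar beside it; axes start at 0. In Mrpl28, Mrpl58, Mrpl27, Mrpl13, Mrpl37, Mrps23 and Mrps11 no mutant reaches the lowest WT embryo, while in Mrpl12 mutant 1 lies above 2 WT embryos.

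Only 3 of 49 large subunit genes had a fold change above 0, and each overlapped its WT embryos. Mrpl51 was at 53.8 ± 1.36 TPM over WT embryos against 56.3 ± 4.13 TPM over mutants (95% confidence interval of the log2 fold change -0.072 to 0.20). Its mutants 3 and 4 were at 57.6 and 61.5 TPM, and its mutants 1 and 2 inside the WT range. Without mutants 3 and 4 its fold change was -0.020. Mrpl35 was at 25.1 ± 0.955 and 25.5 ± 1.10 TPM, and Mrpl50 at 104.0 ± 2.60 and 104.1 ± 5.11 TPM, with a fold change whose sign turned under several alternatives.

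In the small subunit the differences were smaller, and the embryos of a genotype lay closer. Mrps23 (chromosome 11, 88204388 to 88211507), of mitochondria only, was at 139.3, 131.3, 134.0 and 129.0 TPM in WT and 125.9, 121.2, 120.9 and 122.6 TPM in mutants. The groups did not overlap, and its log2 fold change was -0.12 ± 0.042 (limma adjusted p = 0.313). Mrps11 (chromosome 7, 78783119 to 78792989), the counterpart of a bacterial protein of the platform, was at 56.8, 53.4, 51.1 and 51.3 TPM in WT and 48.8, 48.2, 47.5 and 48.4 TPM in mutants. All 4 mutants lay between 47.5 and 48.8 TPM and below all WT embryos, and the log2 fold change was -0.14 ± 0.051.

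Mrps9 (chromosome 1, 42851233 to 42905683), of bacterial type, had the largest difference of the small subunit, -0.21 ± 0.079. It was at 28.6, 27.3, 28.5 and 27.4 TPM in WT, while mutants 1 and 2 had 26.2 and 26.5 TPM and mutants 3 and 4 had 22.1 and 21.7 TPM. Most of this difference thus lay in the 2 mutant libraries that stood apart over all genes. Mrps26 was at 33.6 ± 1.34 and 30.4 ± 0.805 TPM (-0.14 ± 0.054), and Mrps22 at 34.3 ± 0.204 and 31.5 ± 1.44 TPM (-0.12 ± 0.054). Both are mitochondria-specific, and in neither did the embryos of the 2 genotypes overlap.

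Mrps18a, Mrps18b and Mrps18c are paralogs of 1 bacterial protein whose products take different places, that of Mrps18a in the large subunit. Mrps18a was at 36.3, 35.9, 36.2 and 35.3 TPM in WT and 33.5, 34.5, 32.5 and 34.8 TPM in mutants, without overlap, at -0.085 ± 0.050. Mrps18b was at 77.2 ± 3.00 and 77.6 ± 6.59 TPM, and Mrps18c at 99.2 ± 1.33 and 99.1 ± 5.49 TPM. Their 95% confidence intervals of the log2 fold change ran from -0.14 to 0.15 and from -0.11 to 0.11. Whether the paralogs differ from one another was not tested. Mrps30 was at 26.9 ± 0.955 and 26.4 ± 0.540 TPM. Mrps2 (70.8 ± 2.89 and 72.8 ± 5.87 TPM) and Mrps36 (75.9 ± 2.80 and 79.0 ± 5.02 TPM) were the highest in mutants relative to WT, at 0.037 ± 0.064 and 0.056 ± 0.056. Of the most abundant, Mrps21 was at 200.4 ± 12.1 and 192.3 ± 5.61 TPM, Mrps7 at 131.5 ± 8.20 and 121.6 ± 5.08 TPM and Mrps12 at 115.7 ± 7.44 and 114.9 ± 8.55 TPM, and in each the embryos overlapped. Of the least abundant, Mrps10 was at 12.8 ± 0.811 and 11.5 ± 1.37 TPM and Mrps35 at 16.4 ± 0.899 and 16.0 ± 0.283 TPM.

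How far these counts stood out from the rest of the transcriptome depended on the embryos and the scale. Without WT 1, 64 of 78 genes had a fold change below 0, against 64.1% of all genes, and 7 were lower at an unadjusted p under 0.05, against 4.68%. These 7 were Mrpl28, Mrpl58, Mrpl27, Mrpl13, Mrpl37, Mrpl49 and Mrpl12, all of the large subunit. The small subunit median was then -0.046, against -0.049 over all genes, and that of the large subunit -0.076. The number of genes without overlap was 15 without WT 1, against 4.88% of all genes. With TPM rescaled by the median ratio over genes, which moved the median of all genes from -0.045 to -0.0036, 57 of 78 were below 0 (38 of 49 and 19 of 29), against 51.1%. Then 10 were lower at an unadjusted p under 0.05, against 6.91%, and the medians were -0.058 and -0.015.

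Without mutants 3 and 4 most genes of the transcriptome were higher in mutants, and most genes of the mitochondrial ribosome were lower. Then 72 of 78 had a fold change below 0, against 41.3% of all genes, whose median was 0.027, and 7 were lower at an unadjusted p under 0.05 against 2.65%. The medians were -0.10 for the large and -0.050 for the small subunit. The cytosolic ribosomal protein genes were also mostly lower there, with 76 of 80 below 0 and a median of -0.089. Without mutants 1 and 2, 66 of 78 were below 0, against 70.2% of all genes. In that comparison 15 of 78 genes had a limma adjusted p under 0.05, against 24.8% of all genes, led by Mrps9, Mrpl24 and Mrpl49.

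**Figure D5:**
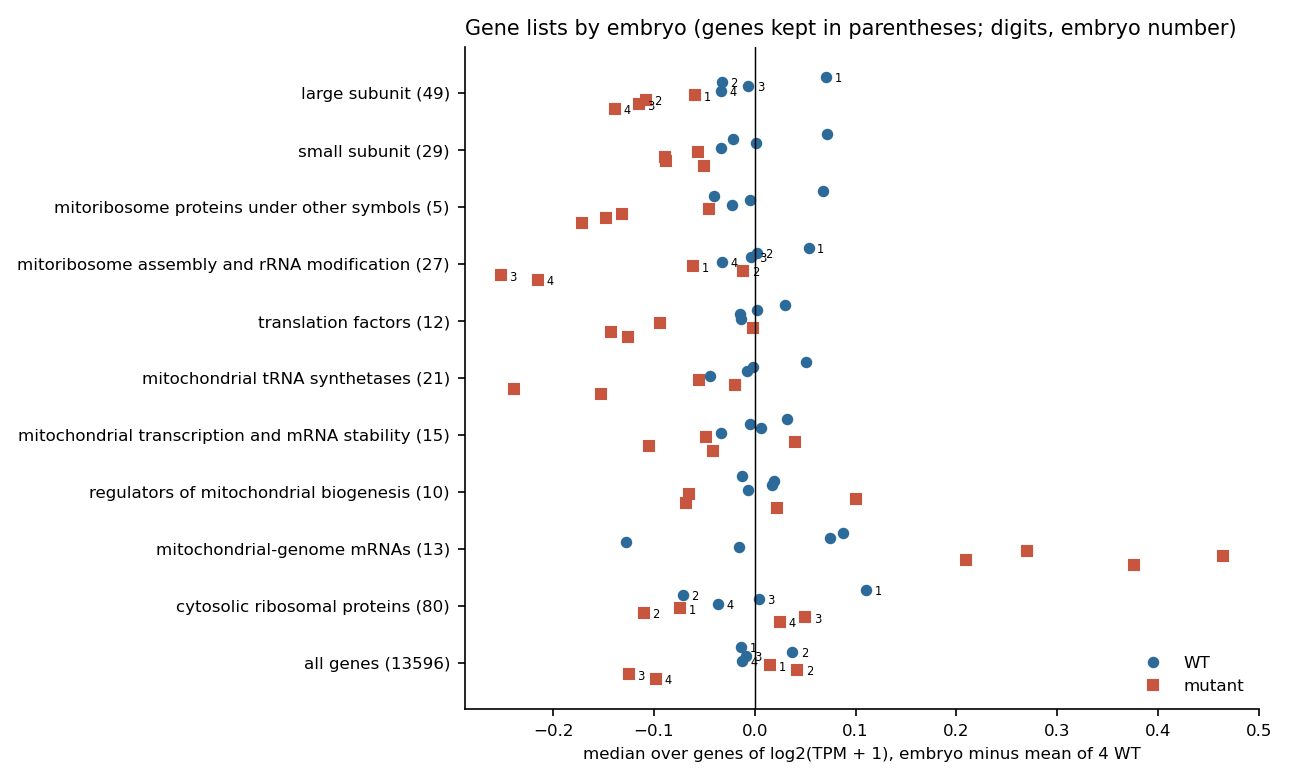
Median over the genes of each list of log2(TPM + 1) minus the WT mean, for each embryo (blue circles WT, red squares mutant), with the number of genes in parentheses. Both subunits show all mutants left of all WT embryos, assembly factors and tRNA synthetases show mutants 3 and 4 far left, and mitochondrial-genome mRNAs show all mutants to the right. Over all genes mutants 3 and 4 also lie left, at -0.125 and -0.098. They are at -0.115 and -0.139 in the large subunit and at -0.088 and -0.050 in the small subunit.

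Here and for the lists that follow, a pair of values is the mean ± SD over 4 WT and then over 4 mutant embryos. Of 5 genes for proteins of the mitochondrial ribosome that carry other symbols, 5 had a log2 fold change below 0, against 62.3% of all genes. None had an adjusted p under 0.05, and the median was -0.13. Ptcd3, which lines the entry of the mRNA channel, was at 68.1 ± 1.77 and 60.6 ± 4.55 TPM (-0.17 ± 0.060; limma adjusted p = 0.317), and Aurkaip1 at 106.6 ± 3.58 and 97.4 ± 5.13 TPM, with no overlap. Dap3, a GTP-binding small subunit protein, was at 41.9 ± 1.26 and 39.8 ± 1.65 TPM. Chchd1 was at 247.0 ± 16.7 and 229.6 ± 14.2 TPM, and Gadd45gip1 at 63.7 ± 4.24 and 58.2 ± 2.38 TPM.

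Of 27 assembly and rRNA modification genes 24 had a fold change below 0, against 62.3% of all genes, and 4 of the 27 were lower at an unadjusted p under 0.05, against 8.0%. The median was -0.13. Mrm2, a methyltransferase of the large rRNA, was at 27.3 ± 1.61 and 23.7 ± 0.877 TPM, without overlap. Mtg2, a GTPase of assembly, was at 9.04 ± 0.364 and 7.48 ± 1.05 TPM. Trub2, a pseudouridine synthase, was at 29.3 to 32.7 TPM in WT and at 29.4, 30.1, 19.9 and 22.2 TPM in mutants 1 to 4. In Trub2 only mutants 3 and 4 were low. Over the list the median difference from the WT mean was -0.061, -0.011, -0.25 and -0.21 in mutants 1 to 4. Over all genes it was 0.015, 0.042, -0.125 and -0.098. Without mutants 3 and 4 the median log2 fold change of the list was -0.036, against 0.027 over all genes. Then 19 of 27 were below 0 (70.4%), against 41.3% of all genes. Ybey, Noa1 and Rbfa were at 6.98 ± 0.218 and 7.53 ± 0.536, 28.7 ± 1.00 and 29.4 ± 2.46, and 54.5 ± 2.08 and 54.9 ± 2.81 TPM.

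Of 12 translation factors 10 were below 0 and 3 were lower at an unadjusted p under 0.05, against 62.3% and 8.0% of all genes. The median was -0.083. Without mutants 3 and 4 it was -0.014, against 0.027 over all genes, and 7 of 12 were below 0 (58.3%), against 41.3%. Tsfm, the exchange factor of the elongation factor Tufm, was at 41.7 ± 2.01 and 37.4 ± 1.41 TPM, without overlap. Taco1, which aids translation of mt-Co1, was at 44.4 ± 0.700 and 40.4 ± 2.33 TPM, and the initiation factor Mtif3 at 8.77 ± 0.270 and 7.40 ± 0.907 TPM. Tufm itself was at 228.3 ± 15 and 235.5 ± 37.7 TPM, ranging from 193.4 in mutant 1 to 281.5 TPM in mutant 4, and the recycling factor Mrrf at 17.8 ± 0.623 and 18.2 ± 0.701 TPM.

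Of 21 mitochondrial tRNA synthetases and amidation genes 19 were below 0 and 0 were lower at an unadjusted p under 0.05, against the same 62.3% and 8.0%. The median was -0.11. Without mutants 3 and 4 it was -0.037, against 0.027 over all genes, and 15 of 21 were below 0 (71.4%), against 41.3%. Hars2 was at 19.3 to 21.4 TPM in WT, while mutants 1 and 2 had 20.5 and 19.6 TPM and mutants 3 and 4 had 13.5 and 12.5 TPM. Tars2 was at 25.6 ± 1.18 and 22.7 ± 1.96 TPM and Nars2 at 8.17 ± 0.250 and 7.05 ± 0.801 TPM. Wars2 (7.26 ± 0.409 and 7.54 ± 0.641 TPM) and Gatc (53.9 ± 2.80 and 54.3 ± 4.18 TPM) were the 2 above 0.

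Of 15 genes of mitochondrial transcription and mRNA stability 9 were below 0 and 6 above, a share near the 62.3% of all genes, with a median of -0.0064. At an unadjusted p under 0.05, 3 were lower and 1 higher, against 8.0% and 5.55% of all genes. Pnpt1, an RNA-degrading enzyme, was at 54.7 to 57.4 TPM in WT, while mutants 1 and 2 had 52.0 and 52.4 TPM and mutants 3 and 4 had 35.2 and 34.3 TPM. Hsd17b10, part of the enzyme that cuts tRNA 5′ ends, was at 247.1 ± 17.9 and 218.9 ± 19.1 TPM, and the elongation factor Tefm at 36.2 ± 2.83 and 31.2 ± 3.92 TPM. Lrpprc, which holds mitochondrial mRNAs stable, was at 37.7 ± 1.41 and 42.5 ± 3.51 TPM. Mtpap, the poly(A) polymerase, was at 17.5 ± 0.632 and 18.0 ± 0.584 TPM, and Prorp at 14.9 ± 0.370 and 15.4 ± 1.82 TPM.

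Regulators of mitochondrial biogenesis split evenly, 5 of 10 below 0 against 62.3% of all genes, none at an unadjusted p under 0.05. Nrf1, whose word stands in the promoter of Mrpl22 shown above, was at 24.6 ± 0.904 and 22.7 ± 1.19 TPM. Gabpb1, the partner of the ETS factor GABPA, was at 29.2 ± 0.532 and 28.0 ± 1.69 TPM, and Esrra at 14.0 ± 0.901 and 12 ± 2.05 TPM. Ppargc1a and Ppargc1b, the coactivators, were low, at 1.28 ± 0.409 and 1.82 ± 0.603 TPM and at 1.69 ± 0.223 and 1.92 ± 0.237 TPM. Mycn was at 146.2 ± 14.6 and 153.3 ± 24.8 TPM.

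The mRNAs that the mitochondrial ribosome translates stood in the opposite direction. Of the 13 mRNAs of the mitochondrial genome 12 had a fold change above 0, with a median of 0.29 over all 13, and mt-Nd6 was below. At an unadjusted p under 0.05, 11 were higher and 1 was lower, against 5.55% and 8.0% of all genes, and none had an adjusted p under 0.05. Their summed TPM was 7.81, 8.31, 7.20 and 7.91 times that of the 78 genes in WT 1 to 4 and 9.78, 11.2, 9.76 and 10.6 times in mutants 1 to 4. The ratio was higher in each mutant than in each WT embryo. TPM is a share of a fixed total, so a higher share of these mRNAs lowers that of all other genes. With mitochondrial-genome transcripts taken out before scaling, 65 of 78 genes were below 0, against 57.9% of all genes, and 16 were lower at an unadjusted p under 0.05, against 5.91%. Cytosolic ribosomal protein genes had a median log2 fold change of -0.038, with 53 of 80 below 0, against 62.3% of all genes.

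Many of these genes share a promoter region or exons with a neighbour. Of the 78, 33 (42.3%) start within 1000 bases of a gene that runs the other way, against 15.5% of 12631 tested protein-coding genes. Mrpl46 and Mrps11 form such a pair within the set, 1 of each subunit. Mrpl46 was at 90.9 ± 3.98 and 83.2 ± 3.68 TPM, and Mrps11 was described above. Other pairs were Mrps12 with Sars2, the mitochondrial seryl-tRNA synthetase, Mrpl43 with Twnk, the mitochondrial DNA helicase, and Mrpl47 and Mrpl36 with the complex I genes Ndufb5 and Ndufs6. Of 31 such neighbours outside the set 29 were tested, and 23 had a fold change below 0 (79.3%), against 62.3% of all genes, with a median of -0.092. At an unadjusted p under 0.05, 1 was lower, against 8.0%, namely Eme1 beside Mrpl27 (-0.23). Ptcd2 beside Mrps27, whose ETS word is shown above, was at 0.033, and Apba3 beside Mrpl54 at 0.036. The exons of 33 genes overlap those of another gene, in 28 of them on the other strand. Counting other-strand bases alone, the overlap was over more than 10% of the merged exon length in 14 genes. Whether the authors counted by strand is not given in the sources used here. Reads in such overlaps thus cannot be told apart, as for Mrpl46 and Mrps11, Mrpl12 and Mrpl27. Counting by strand would not part the reads of overlaps on the same strand, as for Mrpl53.

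The median log2 fold change was -0.080 for the 8 genes with the NRF1 word and -0.095 for the 61 without, and 0 of the 8 and 18 of the 61 were lower at an unadjusted p under 0.05. It was -0.11 for the 11 with the ETS word and -0.085 for the 58 without, with 2 and 16 lower. It was -0.080 for the 12 with the YY1 word and -0.095 for the 57 without, with 3 and 15 lower. For the E-box the median was -0.085 in the 5 genes with it and -0.090 in the 64 without, with 2 and 16 lower. Of all genes 8.0% were lower at that threshold. The difference between genes with and without a word was not tested. Across genes the fold change correlated with the log2 mean TPM at Pearson r = -0.23 and Spearman rho = -0.20 in the 49 genes of the large subunit, and at 0.29 and 0.23 in the 29 of the small subunit. With the log2 merged exon length the values were 0.20 and 0.19 in the large and -0.34 and -0.31 in the small subunit. The signs were thus opposite in the 2 subunits, and over all 78 genes the values were near 0 (r = -0.12 with level and 0.048 with length). The genes were also put in 3 groups of 26 by length of the principal transcript. At an unadjusted p under 0.05, 3 of the shortest, 13 of the middle and 4 of the longest were lower, against 8.0% of all genes. The genes share the same 8 libraries, and these values are descriptions.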

How the data were processed

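RNA was sequenced from 8 single whole embryos, 4 WT and 4 mutant, assigned by their labels, and all 8 columns of the deposited table were matched to embryos (0 columns were left unmapped). The values are TPM made by the authors. The build is GRCm38/mm10 per the submitters' processing notes, and for the aligner, counter, annotation and use of strand nothing is stated in those sources.

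Genes with at least 1 TPM in at least 4 embryos were tested with limma 3.58.1 (R 4.3.3) on log2(TPM + 1), with a variance trend, genotype as the sole term, 2-sided p and Benjamini-Hochberg adjustment over 13596 genes. Fold changes on this scale understate those of low genes. Exact permutation tests used the 70 assignments of 4 against 4. Replicates are separate embryos, so p-values measure the spread between embryos.

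Whole reads were recovered from the TPM steps with GENCODE exon lengths. Between 97.72% and 97.93% of genes above 0 were whole within 0.05 reads, which served for depth and for an added voom fit.

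Named genes were, per subunit by symbol, the 4 highest and 2 lowest by mean TPM and the 5 of smallest p in each direction. Mrps18a to Mrps18c, Mrps30, Mrpl12, 5 ribosome proteins with other symbols, and the 3 of smallest p per direction in each other list were added. The members and lists were chosen with earlier results of these data known. Alternatives were other pseudocounts, filters, scalings, weights, a replicate block and leaving out embryos. Protein sequences were not used here, and promoters were available for 69 genes.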

Additional observations from a re-analysis of the deposited data

Results flagged for a closer look

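Dixon's test was run on the 4 embryos of each genotype for each named gene, and 5 of 128 groups (3.91%) had an embryo whose gap to its nearest neighbour, as a share of the group's range, was over the 95% critical value. Chance alone gives about 1 in 20. Mrpl12 was at 389.5 TPM in mutant 1, and the other mutants were at 321.9 to 331.1 TPM. Mrpl34 was at 182.0 TPM in WT 3, against 208.6 to 211.3 TPM in the other WT embryos. WT 1 stood above the others in Mrps7, at 143.6 against 125.6 to 128.4 TPM, and in Mrps35, at 17.7 against 15.8 to 16.1 TPM. The recycling factor gene Mrrf was at 19.2 TPM in mutant 1, against 17.8 to 17.9 TPM in the other mutants.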

How the results depend on the processing

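Leaving out 1 embryo at a time, the number of genes of the 78 lower at an unadjusted p under 0.05 ran from 7 (without WT 1) to 27 (without mutant 1), against 4.68% and 14.2% of all genes. It was 13 without WT 3 and 13 without mutant 4, against 6.32% and 4.31%. The number higher was 0 throughout, as was the number of the 78 with a limma adjusted p under 0.05, and 0 to 1 of all genes had one. The median log2 fold change ran from -0.115 to -0.0756 in the large subunit and from -0.0803 to -0.0456 in the small subunit. With median-ratio scaling 10 genes were lower, against 6.91%, and the small subunit median was -0.0145. Leaving out mutants 3 and 4, chosen after seeing the data, gave 3 genes called and 7 of the 78 lower, against 2.65%, and leaving out mutants 1 and 2, also chosen then, gave 3369 genes and 15 of the 78 called, against 24.8%, with 1 higher at an unadjusted p. The YY1 share was 5.80% in the 250 bases before the start. Leaving out embryos also leaves fewer samples, and the causes of these changes were not tested.

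Of the 29 named genes of the set, 9 changed sign under at least 1 of 20 settings, and none of the 9 had passed a threshold. Median-ratio scaling gave 0.0331 for Mrps12, 0.0098 for Mrps35, 0.0419 for Mrps18c and 0.016 for Mrps30. Taking out mitochondrial-genome transcripts gave 0.0062 for Mrps12 and 0.015 for Mrps18c, array weights gave -0.0103 for Mrpl50, 0.0358 for Mrps12 and 0.0244 for Mrps18c, and voom on recovered reads gave 0.0015 for Mrps18c. Leaving out mutants 3 and 4 gave -0.0203 for Mrpl51, -0.0271 for Mrpl35, -0.0216 for Mrps18b, -0.0409 for Rbfa, -0.1439 for Tufm, -0.0467 for Gatc and -0.0286 for Mycn. Leaving out mutants 1 and 2 gave -0.0357 for Mrpl50, 0.0689 for Mrps12, -0.0031 for Mrps36, 0.0454 for Mrps18c, -0.0014 for Mrrf and -0.0461 for Wars2. Leaving out 1 embryo at a time gave -0.0574 to 0.0319 for Mrps12, -0.0468 to 0.0039 for Mrps35, -0.0372 to 0.0263 for Mrps18c, -0.0502 to 0.0407 for Mrps18b, -0.017 to 0.0355 for Mrpl50, -0.023 to 0.0345 for Rbfa, -0.0257 to 0.0613 for Gatc, -0.0291 to 0.1509 for Mycn, -0.0072 to 0.0827 for Noa1, -0.0575 to 0.1222 for Tufm and -0.0188 to 0.0834 for Prorp.

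With the replicate number as a block, 21 of the 78 genes were lower at an unadjusted p under 0.05, against 9.37% of all genes. Same-numbered embryos correlated in their deviations at -0.062, 0.04, -0.194 and -0.245, which shows no clear shared deviation. Whether same-numbered embryos had a litter or batch in common was not tested. Each gene rested on 1314 reads or more per embryo.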
